A study of Capra hircus with 8 samples.

Results

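Skin transcriptomes at month 12 were compared with those at month 9 in milk goats and in cashmere goats (Capra hircus), the fibre breed that grows a fine undercoat. The comparison rests on 4 of the 8 libraries of the series: milk goats at month 12, milk goats at month 9, cashmere goats at month 12 and cashmere goats at month 9, each with 1 library of polyadenylated RNA. The other 4 libraries, of months 3 and 6, entered the main fits only as a source of spread. A further model, described below, also used them in its estimate. No treatment or allele is named in the labels. They list each month under age, whereas the design text names only months, so calendar months and months of life cannot be told apart. It is also not stated whether a library came from 1 animal or a pool, and the protocol text mentions embryos although the tissue is given as skin. P-values therefore measure only the spread between these libraries, which may be technical.

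Hair follicles cycle through growth (anagen), regression (catagen) and rest (telogen). In a growing follicle, dividing matrix cells at its base, next to the dermal papilla, build the hair shaft from hair keratins and keratin-associated proteins. The same matrix builds the inner root sheath, a rigid sleeve rich in trichohyalin that is hardened by enzymes and lost when growth ends. Many mammals of temperate regions grow and shed their coat with the season.

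Total reads were 11485295 and 13899750 for milk goats at months 12 and 9, and 7480053 and 8718429 for cashmere goats. Of 18815 genes listed, 14085 had enough reads to be tested. The epidermal keratins KRT5, KRT14, KRT1 and KRT10 stood at 1197 FPKM or more (fragments scaled by the authors for gene length and mapped reads, which allows levels of different genes to be compared) in every library, as skin should. TCHH alone took a share of all reads of 0.243% and 13.0% in milk goats (months 12 and 9), and of 6.64% and 4.89% in cashmere goats. Such a share lowers every other gene's part of a library, and the TMM scaling factor of the milk goat library of month 9 was 0.783, against 0.990 to 1.02 for the other 3. Levels below are CPM, the counts per 1000000 reads of library size after that scaling. A log2 ratio of 1 is a 2-fold difference, and ratios within a breed compare 1 library with 1 library, so they have no test.

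The 3 markers of this contrast took different courses. TCHH (gene3372), trichohyalin of the inner root sheath, stood at 2463 CPM in milk goats at month 12 and 165650 CPM at month 9, against 65417 CPM in cashmere goats at month 12 and 48857 CPM at month 9. The milk goat library of month 12 was thus the lowest and that of month 9 the highest, with both cashmere goat libraries between them. The log2 ratio of month 12 to month 9 was -6.07 in milk goats and 0.42 in cashmere goats. KRT38 (gene19602), a keratin of the hair cortex, had 3 and 1980 reads in milk goats at months 12 and 9, and 33 and 229 reads in cashmere goats at months 12 and 9. It was lower at month 12 in both breeds. Its log2 ratio was -8.62 in milk goats (95% exact interval of counting error -11.7 to -7.88) and -2.54 in cashmere goats (-3.17 to -2.06). KRT1 (gene4971), a keratin of the suprabasal epidermis, stood at 21113 CPM in milk goats at month 12 and 7764 CPM at month 9, and at 6031 and 4658 CPM in cashmere goats at months 12 and 9. Its log2 ratio was 1.44 in milk goats and 0.37 in cashmere goats.

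**Figure D1:**
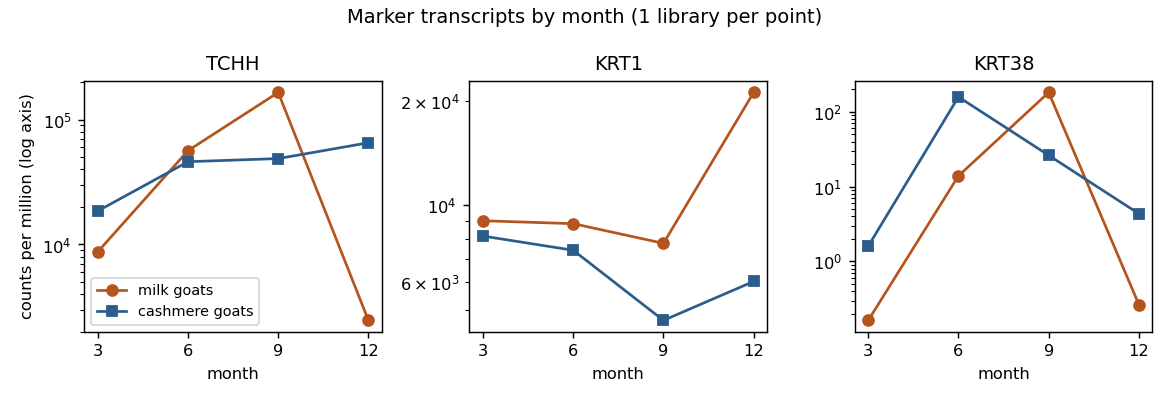
CPM (log axis) of TCHH, KRT1 and KRT38 over months 3, 6, 9 and 12, with 1 library per point, circles for milk goats and squares for cashmere goats. TCHH in milk goats peaked at 165650 CPM at month 9 and was lowest at 2463 CPM at month 12, while cashmere goats had their highest value, 65417 CPM, at month 12.

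The first question was what both breeds share at month 12 against month 9. With breed as a pairing term, edgeR's quasi-likelihood test with Benjamini-Hochberg adjustment called 0 genes higher and 0 lower at an adjusted p of 0.05. The smallest adjusted p was 0.350, for BCO2. In this fit the measure of spread includes any difference between the courses of the breeds over the months. At an unadjusted p of 0.05, 627 genes (4.45%) were higher and 670 (4.76%) lower, 9.21% together. DESeq2, another count model, called 22 (0.156%) higher and 23 (0.163%) lower. The edgeR count depended on 1 library: without the cashmere goat library of month 12, which leaves month 12 to the milk goat library alone, 611 genes were higher and 852 lower. By size alone, 90 genes (0.639% of those tested) were at least 2-fold lower in both breeds and 64 (0.454%) at least 2-fold higher in both. Of the 90, 48 carry locus-number symbols, against 1334 of all 14085 genes tested. Many of the 90 were lowered further in milk goats and passed the test of the difference described below, which 13.3% of all genes passed. They included KRT38, PLA2G2E, AQP5 and MMP1, so this class does not hold changes of equal size. The fitted difference was -4.21 for KRTAP15-1, -2.7 for KLK6 and -1.93 for PRPH. For COL1A1, which did not pass, it was -1.81. In all, 1309 genes (9.29%) were at least 2-fold lower and 1345 (9.55%) higher in milk goats, against 317 (2.25%) lower and 187 (1.33%) higher in cashmere goats.

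Type I and type III collagens of the dermis were lower at month 12 in both breeds. COL1A1, a chain of type I collagen, stood at 539 CPM in milk goats at month 12 and 5146 CPM at month 9, and at 735 and 1994 CPM in cashmere goats at months 12 and 9. Both month 12 libraries were below both month 9 libraries. Its log2 ratio was -3.25 in milk goats and -1.44 in cashmere goats, and the pairing fit gave -2.42 (edgeR adjusted p = 0.541). COL1A2, the other chain of that collagen, had ratios of -2.92 and -1.56 in milk and cashmere goats. COL3A1, type III collagen, had -2.91 and -1.33. The other 17 of 20 collagen genes tested did not reach 2-fold in both breeds, and the median over the 20 was -0.39 in milk goats and -0.15 in cashmere goats. Collagen levels varied widely over the series. Summed over the 20 genes at months 3, 6, 9 and 12, they were 21390, 14030, 11110 and 3101 CPM in milk goats. In cashmere goats they were 9720, 35390, 6365 and 3610 CPM. SFRP2, a secreted Wnt inhibitor of fibroblasts, stood at 3.35 and 11.8 CPM in milk goats and 1.84 and 5.73 CPM in cashmere goats at months 12 and 9, and C1QTNF6, a secreted C1q-like protein, at 1.06 and 9.19 CPM and 0.92 and 4.47 CPM.

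Hair cortex genes were also among the genes lower in both breeds. They included KRT38 and KRTAP15-1, a keratin-associated protein, which stood at 1.15 CPM in milk goats at month 12 and 58.9 CPM at month 9, and at 63.1 and 173 CPM in cashmere goats at months 12 and 9. All 4 keratin-associated proteins named in this gene table were lower at month 12 in each breed, with medians of -4.57 in milk goats and -0.93 in cashmere goats. Only 1 of the 4 reached 2-fold in cashmere goats. Each also passed edgeR's test of the difference described below, with fitted differences between -4.21 and -2.29, and DESeq2 called fewer. A second deposited count table, built on another gene set, holds more of this family. In it, 24 of 24 tested members were at least 2-fold lower in milk goats and 19 of 24 in cashmere goats, with medians of -5.20 and -1.28. Hair shaft keratins in that table differed: 17 of 17 were at least 2-fold lower in milk goats, with a median of -4.89, but only 1 of 17 in cashmere goats, with a median of -0.46. These families hold near-identical copies, and how the authors counted reads that fit several copies is not given in the sources used here, so values of single copies are uncertain.

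KLK6, a kallikrein serine protease, stood at 4.23 and 82.9 CPM in milk goats at months 12 and 9, and at 31.5 and 94.6 CPM in cashmere goats. PLA2G2E, a secreted phospholipase A2 known from mouse hair follicles, had 1 and 147 reads in milk goats and 23 and 67 reads in cashmere goats. HSP70.1, a heat-inducible chaperone, had log2 ratios of -2.31 and -1.27 in milk and cashmere goats. DESeq2 called HSP70.1 lower (adjusted p = 0.019) and also HSPA8, its constitutive relative (adjusted p = 0.0458). Of the 23 genes that DESeq2 called lower, 17 were also at least 2-fold lower in both breeds.

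Several genes of lipid and steroid metabolism were among those higher in both breeds. FA2H, which hydroxylates fatty acids for skin lipids, stood at 631 CPM in milk goats at month 12 and 246 CPM at month 9, and at 463 and 203 CPM in cashmere goats at months 12 and 9. BCO2, which cleaves carotenoids, stood at 91.2 and 33.8 CPM in milk goats and 66.6 and 22.7 CPM in cashmere goats. In both genes each month 12 library was above each month 9 library. Their log2 ratios were close between breeds: 1.36 and 1.18 for FA2H, and 1.43 and 1.55 for BCO2, in milk and cashmere goats. The tested difference between breeds was 0.17 ± 0.25 (SE) for FA2H and -0.12 ± 0.23 for BCO2. ELOVL3, which elongates fatty acids in mouse sebaceous glands, stood at 1534 and 633 CPM in milk goats and 772 and 369 CPM in cashmere goats. DESeq2 called FA2H (adjusted p = 4.73e-06), BCO2 (adjusted p = 7.13e-07) and ELOVL3 (adjusted p = 0.00177) higher, whereas edgeR's adjusted p was 0.541, 0.350 and 0.541.

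AKR1D1, a steroid 5-beta-reductase, had log2 ratios of 1.89 in milk goats and 3.75 in cashmere goats, and THRSP, a regulator of fatty acid synthesis, 1.20 and 1.34. AKR1D1 passed edgeR's test of the difference described below (adjusted p = 0.037), with the larger ratio in cashmere goats. MUCL1, a mucin-like protein of skin glands, stood at 47.8 and 15.2 CPM in milk goats and 23.0 and 8.71 CPM in cashmere goats at months 12 and 9. AQP5, a water channel of sweat glands on the same gland list, was lower in both breeds, at -5.31 and -1.19. Of 22 genes of the sebaceous gland and of fatty acid synthesis, 2 (ELOVL3 and THRSP) were 2-fold higher in both breeds, and 15 in milk goats and 14 in cashmere goats had a positive ratio, with medians of 0.61 and 0.28. The rule also named genes known from nerve and muscle, although the neuronal list had medians of 0.10 in milk goats and 0.04 in cashmere goats. The skeletal muscle list (10 tested) had medians of 0.98 and 0.51, with 7 positive ratios in milk goats and 9 in cashmere goats. It had 0 members in this class, and with log2(FPKM + 1) its medians were 0.26 and 0.21. PRPH, another neuronal filament protein, was lower in both breeds (-2.92 and -1.03, DESeq2 adjusted p = 0.00776). MUSK, the receptor kinase of the neuromuscular junction, had 120 and 8 reads in milk goats and 19 and 7 reads in cashmere goats at months 12 and 9. NEFH, the heavy neurofilament chain, had 897 and 31 reads in milk goats. In cashmere goats it had 39 reads at month 12 and 0 at month 9, which makes it at least 14.9-fold higher when 3 reads are taken as the limit that 0 allows. RGS7BP, which anchors a regulator of G-protein signalling, had ratios of 1.95 and 2.03. The remaining 2 genes the naming rule took were BEX4, at 1.10 and 1.67, and CCDC190, at 1.46 and 1.24.

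**Figure D2:**
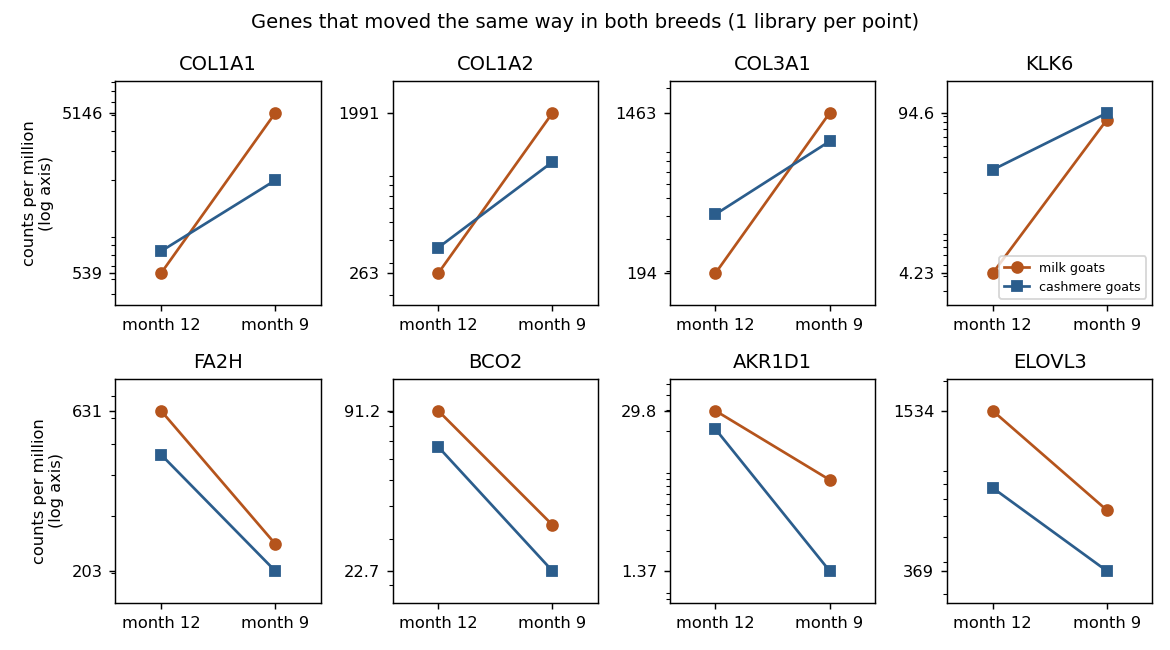
CPM (log axes, each with its own range) of 8 genes lower (top row) or higher (bottom row) at month 12 than at month 9 in both breeds, with 1 library per point, circles for milk goats and squares for cashmere goats. COL1A1 stood at 539 and 735 CPM at month 12 and at 5146 and 1994 CPM at month 9, and FA2H at 631 and 463 CPM and at 246 and 203 CPM, in milk and cashmere goats.

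The second question was what was lower or higher only in milk goats. By size, 977 genes (6.94%) were at least 2-fold lower in milk goats and within a log2 ratio of 0.5 of level in cashmere goats, and 863 (6.13%) were higher in this way. With the breeds exchanged, the classes held 69 (0.49%) and 66 (0.469%) genes. The difference itself, the milk goat change minus the cashmere goat change, was tested with edgeR in a model that leaves 1 residual degree of freedom, taken from the breed difference at months 3 and 6. The milk goat change lay below the cashmere goat change in 1093 genes (7.76%) and above it in 781 (5.54%) at an adjusted p of 0.05. Of the 977 genes lower only in milk goats, 610 passed that test (4.33% of all genes), and of the 863 higher only in milk goats, 287 (2.04%). DESeq2 called 226 (1.6%) below and 51 (0.362%) above, and 276 of its 277 genes were also called by edgeR. A further edgeR model, the breed difference at month 12 against its mean over months 3, 6 and 9, called 94 below and 42 above, and 86 genes were called by all 3 models (66 below, 20 above). Scaling by library totals instead of TMM moved the median log2 ratio of all genes in milk goats to 0.384, against 0.0533 with TMM, and gave 518 genes below and 1370 above. The share of calls that lay below was then 27.4%, against 58.3% with TMM.

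**Figure D3:**
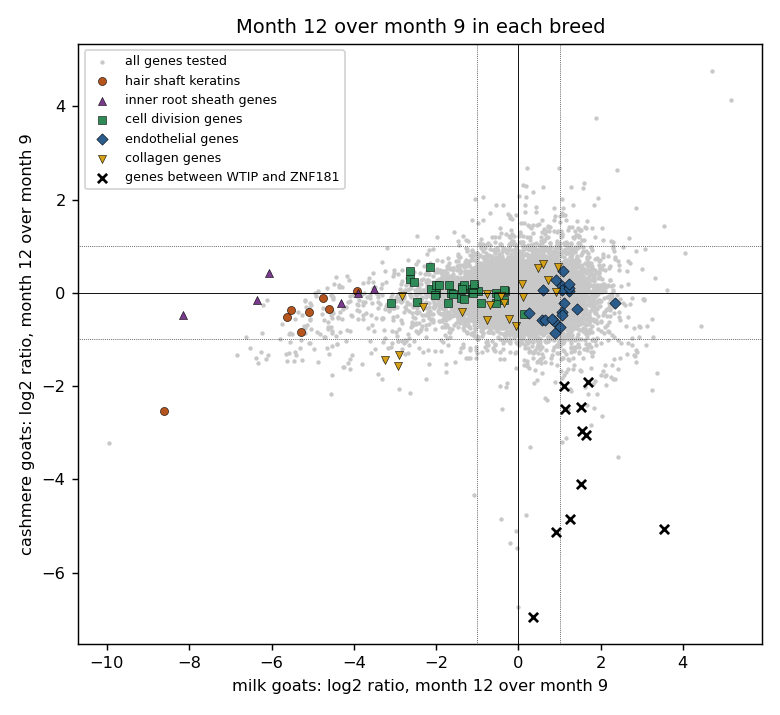
Log2 ratio of month 12 to month 9 in milk goats (horizontal axis) and in cashmere goats (vertical axis), 1 point per gene tested, with dotted lines at 2-fold. Hair shaft keratins, inner root sheath genes and cell division genes spread to the left at nearly level height, the 20 endothelial genes lie to the right of 0, and 11 neighbouring genes between WTIP and ZNF181 lie low and to the right.

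Inner root sheath genes were far apart between the breeds, with a median fitted difference of -5.16, against 0.06 over all genes. All 6 tested members (TCHH, TCHHL1, KRT25, KRT26, KRT27 and KRT74) were at least 2-fold lower in milk goats and within 0.5 of level in cashmere goats, with medians of -5.20 and -0.09, against 0.05 and -0.03 over all genes. TCHHL1, a trichohyalin-like protein, stood at 13.9 CPM in milk goats at month 12 and 3991 CPM at month 9, and at 850 and 1190 CPM in cashmere goats at months 12 and 9. The difference was -7.68 ± 0.45 (SE, edgeR adjusted p = 0.000168). KRT26, a keratin of the sheath cuticle, stood at 8.37 and 705 CPM in milk goats and at 372 and 417 CPM in cashmere goats. KRT25, a keratin found in all layers of the sheath, stood at 278 and 4158 CPM in milk goats and at 4327 and 4368 CPM in cashmere goats. The milk goat library of month 12 stood apart from the other 3 in each of these genes. The difference was -6.49 ± 0.78 for TCHH (adjusted p = 0.00222) and passed the test for all 6, also in DESeq2. TCHH lost its call with limma on log2(FPKM + 1) (adjusted p = 0.0581). It was not called in the month 12 model (adjusted p = 0.137), which tests another quantity than month 12 against month 9. Of the 6 genes, 3 passed in all 3 models.

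All 8 hair shaft keratins named in the table were at least 2-fold lower in milk goats, with a median of -5.19, against -0.39 in cashmere goats, and all 8 passed the test of the difference (7 in DESeq2). KRT82, a keratin of the hair cuticle, stood at 12.0 and 564 CPM in milk goats at months 12 and 9 and at 308 and 398 CPM in cashmere goats. KRT35, an early keratin of the hair matrix and cuticle, stood at 28.8 and 710 CPM in milk goats and at 694 and 883 CPM in cashmere goats. KRT39, another hair keratin, had a difference of -4.73 ± 0.96 (edgeR adjusted p = 0.0165). KRT38 passed as well, at -6.77 ± 0.46 (adjusted p = 0.000305), although it was lower in both breeds. It did not pass in the month 12 model (adjusted p = 0.687) or with limma on log2(FPKM + 1), where the difference was -2.76 (adjusted p = 0.177). All 3 models called 3 of the 8 keratins.

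Genes of hair protein cross-linking and of the hair cuticle were split. Of 9 genes, 5 passed the test, all with the milk goat change below (3 in DESeq2, 0 in all 3 models). PADI3, a deiminase that converts arginines of trichohyalin to citrulline, stood at 4.58 and 173 CPM in milk goats at months 12 and 9 and at 138 and 156 CPM in cashmere goats. PADI1, a related deiminase, had log2 ratios of -4.92 and -0.08 in milk and cashmere goats. TGM3, a transglutaminase of hair and epidermis, had -2.21 and -0.42. S100A3, a calcium-binding protein on the same list, had -4.73 and -0.58 and was among those called. TGM1 and TGM5, transglutaminases of the epidermis, had -0.77 and 0.68 in milk goats and -0.09 and 0.25 in cashmere goats and did not pass. Also lower only in milk goats were HEPHL1, a copper ferroxidase in which human mutations alter hair, at 15.1 and 517 CPM in milk goats and 387 and 483 CPM in cashmere goats, and DSG4, a desmosomal cadherin of the hair shaft, at 6.70 and 229 CPM and 227 and 272 CPM. LY6G6D, a membrane-anchored protein of the Ly6 family, stood at 24.8 and 843 CPM in milk goats and 396 and 461 CPM in cashmere goats.

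Regulators of the hair matrix followed the same pattern with smaller ratios. Of 29 tested, 18 were at least 2-fold lower and 0 higher in milk goats, none reached 2-fold in cashmere goats, and 19 passed the test of the difference, all below (10 in DESeq2, 4 in all 3 models). FOXN1, the transcription factor lost in nude mice, stood at 30.0 and 396 CPM in milk goats at months 12 and 9 and at 289 and 391 CPM in cashmere goats. DLX3, a homeobox factor of the matrix, stood at 28.6 and 270 CPM in milk goats and at 255 and 310 CPM in cashmere goats. SHH, the signal that matrix cells send, had a log2 ratio of -4.52 in milk goats and -0.40 in cashmere goats. HOXC13, an activator of hair keratin genes, had -3.32 and -0.57, and LEF1, a Wnt effector, -3.32 and -0.54. Members that did not pass included GATA3, TFAP2A, TFAP2C and WNT10A, with ratios between -0.21 and 0.82 in milk goats. FOXQ1 and BMP4, at -0.71 and -1.2 in milk goats, did not pass either.

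Cell division genes were lower in milk goats and near level in cashmere goats. Of 34 tested, 33 had a negative ratio in milk goats, with a median of -1.37, and 14 in cashmere goats, with a median of 0.03. The test of the difference was passed by 19, all below, against 6 in DESeq2 and 1 in all 3 models. MKI67, a marker of dividing cells, stood at 55.5 CPM in milk goats at month 12 and 346 CPM at month 9, and at 306 and 222 CPM in cashmere goats at months 12 and 9. It did not pass in the month 12 model (adjusted p = 0.0633). ASPM, a spindle protein, stood at 13.2 and 59.2 CPM in milk goats and at 57.7 and 39.4 CPM in cashmere goats. In bulk tissue, fewer cells of a type and less RNA per cell cannot be told apart.

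Dermal papilla genes and stem cell genes were mixed. Over all genes tested, 9.29% were at least 2-fold lower and 9.55% higher in milk goats. The test of the difference was passed by 7.76% below and 5.54% above. Of 26 papilla genes, 10 were 2-fold lower and 3 higher in milk goats, with medians of -0.76 in milk goats and -0.14 in cashmere goats, and 5 passed the test, all below (1 in DESeq2). EDNRB, the endothelin receptor B, had a log2 ratio of -2.32 in milk goats and 0.06 in cashmere goats, and SFRP1, a Wnt inhibitor, -1.74 and -0.23. BMP6, a BMP ligand, and NOG, a BMP antagonist, had ratios of 1.25 and 1.85 in milk goats. The 17 genes of follicle stem cells and the outer root sheath had medians of -0.03 in milk goats and -0.09 in cashmere goats, with members going both ways. In milk goats 2 were at least 2-fold lower and 3 higher, and the test of the difference was passed by 2 below and 4 above (1 below in DESeq2). KRT6A, a keratin of the outer root sheath, had ratios of -2.12 in milk goats and -0.09 in cashmere goats, and LGR5, a stem cell receptor, -1.46 and -0.19. NFATC1, a factor of follicle stem cells, had 1.31 and -0.60.

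**Figure D4:**
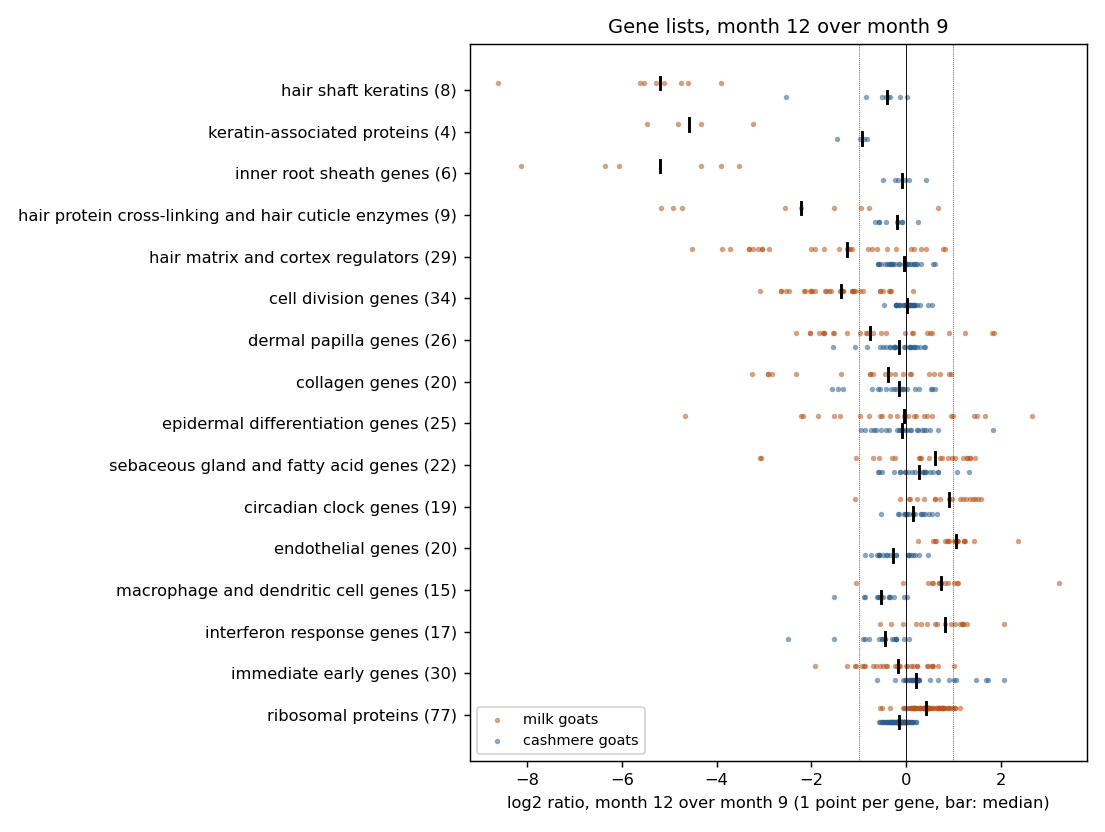
Log2 ratio of month 12 to month 9 for the tested members of 16 gene lists, 1 point per gene and a black bar at the median, with the number of genes in brackets and milk goats above cashmere goats in each row. Medians in milk goats lay near -5 for hair shaft keratins and inner root sheath genes, at -1.37 for cell division genes and at 1.05 for endothelial genes, while cashmere goat medians lay between -0.93 and 0.28.

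The courses at months 3 and 6, which did not enter the choice of these classes, were examined for the same genes. Of the 977 genes lower only in milk goats, 813 (83.2%) were higher at month 6 than at month 3 in milk goats and 826 (84.5%) in cashmere goats, against 50.1% and 49.5% of all genes tested. Of the 863 genes higher only in milk goats, 23.1% and 24.9% were. The median log2 CPM of the lower genes in milk goats was 3.67, 4.29, 4.88 and 3.08 at months 3, 6, 9 and 12. In cashmere goats it was 4.08, 4.54, 4.68 and 4.62. The change from month 9 to month 12 in these medians follows from how the class was chosen, in both breeds. Only the step from month 3 to month 6 is free of that choice. In milk goats the month 12 median stood below that of month 3, a comparison that the choice of the class also affects. The summed level of inner root sheath genes in milk goats was 10080, 63520, 177600 and 2926 CPM over the 4 months, and in cashmere goats 22020, 54080, 58540 and 74180 CPM.

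Epidermal differentiation genes did not move as a group. Of 25 tested, 13 had a negative ratio in milk goats and 14 in cashmere goats, with medians of -0.04 and -0.09. KRT1 did not pass the test of the difference (1.07 ± 0.43 SE, edgeR adjusted p = 0.135). LOR, the main protein of the cornified envelope, passed with ratios of 1.67 in milk goats and 0.08 in cashmere goats. IVL, another envelope protein, stood at 96.4 and 2438 CPM in milk goats at months 12 and 9 and at 962 and 890 CPM in cashmere goats, and passed in the other direction (-4.77 ± 0.70, adjusted p = 0.00482). Opposite signs also occurred among lipid genes: FADS1 and FADS2, the fatty acid desaturases that act in making long polyunsaturated fatty acids, had ratios of -3.06 and -3.08 in milk goats and 0.36 and -0.02 in cashmere goats. Both passed the test, while the median of the 22 sebaceous and fatty acid genes in milk goats was 0.61.

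Most vessel, macrophage and interferon response genes were higher at month 12 than at month 9 in milk goats. All 20 endothelial genes had a positive ratio in milk goats and 8 of 20 in cashmere goats, with medians of 1.05 and -0.28, and 8 passed the test of the difference, all above (1 in DESeq2). Over all genes, edgeR called 5.54% above and DESeq2 0.362%. CLDN5, a tight junction protein of endothelium, stood at 31.5 and 5.98 CPM in milk goats at months 12 and 9 and at 8.69 and 10.1 CPM in cashmere goats. VWF, von Willebrand factor, stood at 179 and 66.4 CPM in milk goats and at 79.5 and 101 CPM in cashmere goats. The milk goat library of month 12 was the highest of the 4 in both. Macrophage and dendritic cell genes had medians of 0.74 in milk goats and -0.52 in cashmere goats (7 of 15 above, 0 in DESeq2). Interferon response genes had medians of 0.82 and -0.45 (6 of 17 above, 1 in DESeq2), with 14 of 17 ratios positive in milk goats and 16 of 17 negative in cashmere goats. MX1, an antiviral GTPase, stood at 40.5 and 18.3 CPM in milk goats and at 12.6 and 24.1 CPM in cashmere goats. Calls of the difference were few or absent among T, B and mast cell genes. Over months 3, 6, 9 and 12, summed endothelial levels were 1222, 798, 431 and 890 CPM in milk goats. They were 1002, 724, 499 and 419 CPM in cashmere goats. Macrophage and dendritic cell sums in milk goats were 274, 319, 128 and 207 CPM. In milk goats month 9 was thus the lowest in both lists, and month 12 lay below month 3.

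Other cell type lists moved beside these. Summed levels in milk goats at months 12 and 9 were 459 and 310 CPM for adipocyte genes, 209 and 113 CPM for skeletal muscle genes and 38.4 and 18.9 CPM for mast cell genes. In cashmere goats at months 12 and 9 they were 408 and 319 CPM, 114 and 65.5 CPM and 37.8 and 39.1 CPM. The share of cell types in each piece of skin, and its part in these results, was not tested. With library totals in place of TMM, the 3 vessel and immune medians in milk goats were 1.38, 1.07 and 1.12, and with log2(FPKM + 1) they were 0.82, 0.56 and 0.60.

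Most clock genes were higher at month 12 than at month 9 in milk goats. Of 19 tested, 17 had a positive ratio in milk goats and 14 in cashmere goats, with medians of 0.91 and 0.14, and the labels give no hour of sampling. The test of the difference was passed by 6 above and 1 below in edgeR, against 5.54% and 7.76% of all genes, and by 0 in DESeq2. NR1D2, a repressor of the clock loop, stood at 154 and 53.4 CPM in milk goats at months 12 and 9 and at 92.4 and 93.9 CPM in cashmere goats. DBP, an output factor of the clock, stood at 66.3 and 24.0 CPM in milk goats and at 32.8 and 36.9 CPM in cashmere goats. NFIL3, which competes with DBP for the same sites, was the one below, at 46.6 and 98.6 CPM in milk goats and 97.0 and 99.9 CPM in cashmere goats. The clock list had no member beyond 2-fold in cashmere goats. No gene of the endothelial, macrophage, interferon, clock, papilla or stem cell lists was called by all 3 models.

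The remaining genes that the naming rule took among those higher only in milk goats were ADTRP, SMC1B, C15H11orf52, PDE6A, WISP2, SERPINF2, FOXI3, ADIRF and ADSSL1. ADTRP, a membrane hydrolase of fatty acid esters, was by far the most abundant by CPM, at 780 and 165 CPM in milk goats at months 12 and 9 and at 146 and 149 CPM in cashmere goats. FOXI3, a factor of hair development in dogs and mice, stood at 23.7 and 4.87 CPM in milk goats and at 4.08 and 3.32 CPM in cashmere goats, and its difference did not pass (1.98 ± 0.70 SE, edgeR adjusted p = 0.0936). The log2 ratios of the 9 genes in milk goats lay between 2.13 and 2.77.

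Few genes differed 2-fold in cashmere goats alone, and some of those were genes of acute responses. FOS, a transcription factor induced within minutes of many stimuli, stood at 38.8 and 38.6 CPM in milk goats at months 12 and 9 and at 150 and 35.7 CPM in cashmere goats. The difference was -2.07 ± 0.47 (SE, edgeR adjusted p = 0.0249). FOSB and NR4A1, induced in the same way, had log2 ratios of -0.24 and 0.16 in milk goats and 1.69 and 1.74 in cashmere goats, and did not pass. Of 30 immediate early genes, 25 had a positive ratio in cashmere goats and 13 in milk goats. The test was passed by 9 below and 1 above (0 in DESeq2), against 7.76% and 5.54% of all genes. KRT2, a keratin of the upper epidermis, stood at 43.9 and 32.4 CPM in milk goats and at 108 and 29.9 CPM in cashmere goats. S100A7A, a calcium-binding protein of the psoriasin group, had 0 reads in both milk goat libraries and in cashmere goats at month 12, against 184 reads in cashmere goats at month 9, which makes it at least 53.4-fold lower in cashmere goats at month 12.

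Opposite 2-fold directions were more often milk goats higher and cashmere goats lower (108 genes, 0.767%) than the reverse (10 genes, 0.071%). A run of neighbours stood out among the 108 and was chosen after its values were seen. In the RefSeq gene table for the assembly ARS1.2, 18 genes lie between WTIP and ZNF181, 15 of them are in the count table and 11 were tested. All 11 carry locus-number symbols, and 9 of them are among the 108. What they encode was not examined. Every one of the 11 was at least 2-fold lower in cashmere goats at month 12 than at month 9, with a median log2 ratio of -3.06, and had a positive ratio in milk goats, with a median of 1.53. All 11 passed the edgeR test of the difference and 10 also DESeq2's, with 7 called in all 3 models. LOC102169125 stood at 350 and 121 CPM in milk goats at months 12 and 9 and at 76.0 and 1310 CPM in cashmere goats, with a difference of 5.64 ± 0.33 (SE, adjusted p = 0.000168).

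Over the months 3, 6, 9 and 12 the summed level of the 11 genes was 1568, 1203, 596 and 1689 CPM in milk goats and 5452, 4355, 3756 and 370 CPM in cashmere goats. The cashmere goat library of month 12 was the lowest of the 8, and it alone among the cashmere goat libraries lay below milk goats of the same month. The flanking gene WTIP had ratios of 0.59 in milk goats and -0.13 in cashmere goats, and ZNF181 0.82 and -0.76. ZNF181 passed the test of the difference in the same direction as the 11 genes (edgeR adjusted p = 0.00469), and WTIP did not (adjusted p = 0.311). Whether these 11 genes are similar enough in sequence to share reads was not tested.

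**Figure D5:**
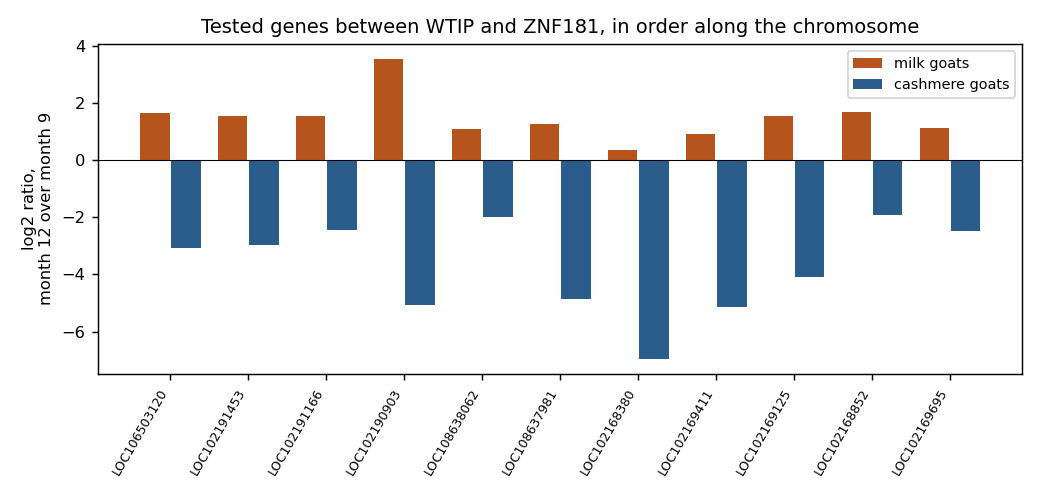
Log2 ratio of month 12 to month 9 for the 11 tested genes between WTIP and ZNF181, in their order on the chromosome, with milk goats as the left bar and cashmere goats as the right bar of each pair. Milk goat bars lie between 0.36 and 3.54 and cashmere goat bars between -6.94 and -1.92.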

How the data were processed

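Polyadenylated RNA from skin was sequenced in paired ends from directional libraries, per the labels' protocols. Both count tables used hold whole read counts as deposited by the authors, not normalized, for 18815 and 20780 genes. The authors also deposited FPKM for the genes of the first table, scaled for gene length and mapped reads. Bowtie2 is named in the submitters' processing notes. Its role and version, and the genome build, are not given in these sources, so no coordinates are printed. Depth was 7480053 to 13899750 reads per library, and a gene with 0 reads may still reach 3 reads, or 0.264 to 0.395 CPM in the 4 libraries compared. Intervals are exact (Clopper-Pearson, 95%) and cover counting error only, since amplified reads lack molecular identifiers.

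The first table was tested with edgeR 4.0.16 in R 4.3.3 (filterByExpr on the breed, TMM factors, quasi-likelihood F tests, Benjamini-Hochberg over 14085 genes). The pairing fit modelled month and breed over 8 libraries, with 3 residual degrees of freedom. The difference between breeds used 7 coefficients and 1 residual degree of freedom, so its calls rest on the spread borrowed across genes. Standard errors were derived from each F statistic. Ratios within a breed are log2 CPM with a prior count of 2. Alternatives were DESeq2 1.42.0, other scalings and filters, limma 3.58.1 on log2 FPKM, the second table and leaving out libraries.

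Genes were named by a rule: symbols not starting with LOC, the 3 markers, the 10 largest changes in each direction of the test of the difference and of each class shared or found in milk goats, 5 in the cashmere goat classes, with at least 100 reads in 1 library for the classes, and up to 7 members per list. SHH, LEF1, HOXC13, LOR and other list members beyond that were chosen after their values were seen. The contrast, the 39 gene lists and the markers were chosen with earlier results of these data known.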

Additional observations from a re-analysis of the deposited data

Results flagged for a closer look

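Every result here differed between the breeds in edgeR's test of the milk goat change minus the cashmere goat change at month 12 over month 9 (Benjamini-Hochberg adjusted p under 0.05), which rests on 1 residual degree of freedom. The milk goat change lay above in 781 genes and below in 1093. Of the genes named in this section, DESeq2 also called TCHHL1, KRT38, TCHH, KRT26, LCN2, FAM26D and NNAT. It did not call the others. The log2 difference below was -7.68 for TCHHL1, -6.77 for KRT38, -6.49 for TCHH and -6.23 for KRT26, all genes of the hair follicle. It was -5.79 for LCN2 (lipocalin 2), -5.74 for FAM26D and -5.74 for PLA2G2E. For FGF21, a metabolic hormone, it was -5.48, and for SLC7A11, a cystine transporter, -5.46. LCN2 had 3 and 247 reads in milk goats at months 12 and 9 and 162 and 277 reads in cashmere goats, while FGF21, SLC7A11 and PLA2G2E had 1 read each in milk goats at month 12.

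Above, the difference was 5.40 for NNAT, 5.13 for MMP12, 5.11 for CYSLTR2, 5.09 for FBP2, 5.08 for EEF1A2, 4.84 for DDIT4L, 4.55 for CYSLTR1 and 4.53 for CCR8. NNAT, neuronatin, stood at 42.7 and 4.32 CPM in milk goats at months 12 and 9 and at 12.1 and 51.9 CPM in cashmere goats. CCR8, a chemokine receptor, had 151 and 13 reads in milk goats and 7 and 17 in cashmere goats. The other 6 had at most 44 reads in any of the 4 libraries. TLR1, TTC6 and CASR also passed but had a library with 0 reads: TLR1 and TTC6 were at least 4.47-fold and 5.43-fold higher, and CASR at least 6.27-fold lower, in milk goats at month 12.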

How the results depend on the processing

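For month 12 against month 9, the 0 higher and 0 lower genes of edgeR became 22 and 23 in DESeq2. Leaving out each library gave 0 to 611 higher and 0 to 852 lower, and every library but the cashmere goat ones of month 12 and month 9 (0 higher, 1 lower) gave 0 and 0. The difference between breeds (781 above, 1093 below) became 1370 and 518 with library totals, 51 and 226 in DESeq2, 367 and 181 with log2(FPKM + 1), 581 and 293 with log2(FPKM + 0.1), and 42 and 94 when the breed difference at month 12 was set against its mean over months 3, 6 and 9. In all 3 of edgeR, DESeq2 and that last model, 86 genes were called, 66 below and 20 above. Class counts are given as lower and higher in both breeds, only in milk goats and only in cashmere goats, where they moved over 1.5 times. Library totals gave 594 and 1855 in milk goats only. No filter gave 141 and 133 in both and 217 and 186 in cashmere goats only, and a stricter filter 52 and 21, and 27 and 20. With log2(FPKM + 1) they were 45 and 14, 346 and 528, and 17 and 8; with log2(FPKM + 0.1), 636 lower in milk goats only and 38 higher in cashmere goats only. A 3-fold threshold gave 12 and 8, 424 and 191, and 17 and 15. The second table gave 107 higher in both, and 116 and 111 in cashmere goats only. A minimum mean of 100 reads over the 4 libraries, chosen after seeing the data, left 41 and 19, 641 and 390, and 14 and 10.

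No named difference and no list median beyond 2-fold reversed under the alternatives run: of 164 values for named differences, 42 lost the threshold, and of 298 list medians 6 moved by over 1.5-fold. The 164 leave out genes that had no adjusted p or did not pass the filter of a setting. DESeq2 thus counts for 9 genes and the stricter filter for 8, against 21 in each other setting. Of the 42, 17 came from the month 12 model, which tests another quantity. Dermal matrix, epidermal, stem cell, immediate early and cholesterol medians in milk goats, all within 0.3 of level, changed sign with library totals (0.07, 0.29, 0.31, 0.17 and 0.17). The cause of these changes was not tested. Pairing was by breed alone, and without the breed term edgeR also called 0 and 0. Leaving out a library was not run for the classes and the difference, which need all 4 or all 8 libraries. Depth limits genes of few reads, and 1 library per breed and month limits all.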

Other observations

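Lists not described above had these median log2 ratios of month 12 to month 9, in milk goats and then in cashmere goats. Ribosomal protein genes (77 tested) had 0.43 and -0.14. Of these, 13 passed the test of the difference between breeds, all above (0 in DESeq2), against 5.54% of all genes above. Nuclear genes of oxidative phosphorylation (58) had 0.11 and -0.19, and transcripts of splicing and of the nucleus (20) 0.10 and 0.27. Heat shock and cold-inducible genes (19) had -0.70 and -0.16, Wnt inhibitors (17) -0.40 and -0.25, BMP pathway genes (18) -0.37 and -0.14, and growth factors of the hair cycle (22) 0.10 and 0.03. Dermal matrix and fibroblast genes (27) had -0.26 and -0.32, and smooth muscle genes (17) 0.21 and 0.24. Schwann cell genes (15) had 0.52 and 0.01, melanocyte genes (10) 0.26 and -0.12, T and NK cell genes (9) 0.76 and -0.36, and cholesterol synthesis genes (20) -0.16 and -0.05. Innate defence genes (10) had 0.25 and -0.56, gland genes of the udder and sweat gland (7) 0.80 and -0.20, photoperiod and hormone response genes (17) 0.27 and 0.01, and neuronal genes (14) 0.10 and 0.04. B and plasma cell genes (3) had 0.56 and -0.12, and 1 red cell gene was tested, SLC4A1, at -4.15 and -0.20. Genes of the mitochondrial genome were not analysed here.

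LOC102176161, which the authors' table numbers next to KRT38, was chosen after its values were seen. Its log2 ratio was -9.94 in milk goats and -3.22 in cashmere goats, beside -8.62 and -2.54 for KRT38. DESeq2 called both lower (adjusted p = 0.00571 each), and edgeR did not (adjusted p = 0.541).

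The 2 count tables were set side by side over 10237 shared symbols. Of 848 genes at least 2-fold lower in milk goats in the first table, 597 were so in the second as well, and of 825 higher, 483.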
